A study of Homo sapiens with 6 samples.

Results

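CLDN4 and the tight junction genes followed here are 9 genes, CLDN1, CLDN2, CLDN3, CLDN4, CLDN6, CLDN7, CLDN12, OCLN and TJP1, out of 61541 genes in the counts of this experiment. They were picked by symbol after CLDN4 had already been seen to differ between sedanolide-treated and control cells, so their own differences between the groups are a description and support nothing. No p-value is printed for them, and where they are said to pass or miss the thresholds of the fit over all genes, that is part of the description and no independent test. RNA was sequenced from HepG2, a hepatoblastoma cell line, in 3 control libraries and 3 libraries from cells kept in 100 μM sedanolide, a phthalide from celery, for 24 h. All 6 libraries came from 1 engineered line that carries luciferase reporter genes on an artificial chromosome vector: an SLR3 luciferase driven by antioxidant response elements and an ELuc luciferase. The study asked which genes respond to sedanolide in relation to the antioxidant transcription factor NRF2. The labels call the control cells only "Control", and dishes shared between libraries were not described, so the p-values below measure the spread between these libraries, which may be technical.

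Tight junctions seal the gap between neighbouring epithelial cells. Claudins are the membrane proteins that polymerise into the strands and set which ions and solutes pass, occludin is a second strand protein of the MARVEL family, and the ZO scaffolds on the inner face tie both to the actin cytoskeleton. In the liver these junctions separate the bile canaliculus from the blood side of the hepatocyte.

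The libraries held 16420258 to 22940963 expected counts in the control group and 19027265 to 26714853 in the sedanolide group. The first principal component (56.1% of the variance) did not separate the groups: side A held control 1, control 2 and sedanolide 3 (1.43% to 2.15% mitochondrial counts), and side B held control 3 with sedanolide 1 and sedanolide 2 (4.23% to 5.22%). The differences of the tight junction genes followed here are therefore also given within the sides. All 7 hepatic marker genes were present, and ALB, AFP and APOA1 were among them. Their summed level was 18899 to 31311 CPM in the control group and 14179 to 23635 CPM in the sedanolide group. CPM are counts scaled to the library total. Levels of single genes were also scaled between libraries by TMM, and the summed levels of marker lists were not. Of 4 fibroblast, 3 endothelial and 3 leukocyte markers, 1 in each list (DCN, VWF and CD3E) had no counts in any library, and PDGFRB, PECAM1 and CD68 were the members above the filter. The summed levels were 15.2 to 24.6 CPM in the control group and 5.26 to 11.4 CPM in the sedanolide group for the fibroblast list, 4.18 to 5.18 and 3.87 to 5.28 CPM for the endothelial list, and 9.10 to 14.2 and 14.3 to 14.4 CPM for the leukocyte list. The NRF2 targets NQO1 and GCLM rose, by 1.21 ± 0.13 and 1.87 ± 0.13 on the log2 scale (± SE), with adjusted p = 0.0172 and 0.00324 in edgeR's quasi-likelihood test.

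CLDN4, which encodes a barrier-forming claudin, stood at 9.83 ± 0.565 CPM in the control group and 26.0 ± 2.25 CPM in the sedanolide group (mean ± SD, n = 3). CLDN1, the gene of another barrier-forming claudin, went the other way, from 38.1 ± 1.46 to 21.2 ± 1.22 CPM. CLDN6 and CLDN2 were lower by a smaller margin, CLDN12 was at the same mean level, and OCLN and TJP1 varied with the side of the library more than with the treatment. CLDN3 and CLDN7 were barely detected.

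**Figure D1:**
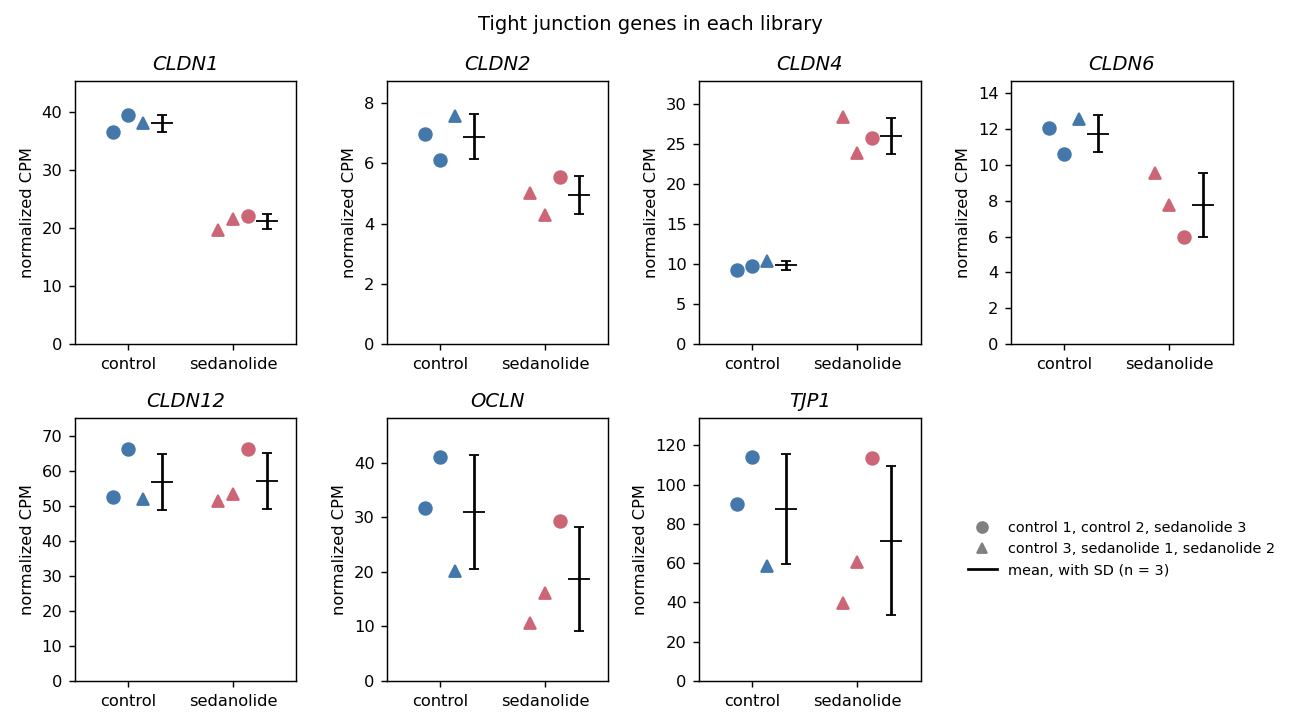
Level of 7 tight junction genes in each library (y axis, normalized CPM from 0; x axis, group). Circles are the libraries of side A and triangles those of side B, and the bar is the mean with SD (n = 3). CLDN4 lies between 9.27 and 10.4 CPM in the control libraries and between 23.9 and 28.4 CPM in the sedanolide libraries, whereas the OCLN and TJP1 points follow the marker shape.

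Of the 9 genes, 7 passed the filter on low counts and were fitted with the 14104 features tested. A feature was called where its adjusted p was under 0.05 and its fold change over 1.5. Over all features 0.674% were called, 0.362% higher and 0.312% lower. Of the 7, CLDN4 was called higher and CLDN1 lower, which is what the genes were chosen around. The groups did not overlap in CPM for 1 gene that was higher (8.69% of all features) and 3 that were lower (9.66%), 4 in all (18.3%). The median log2 fold change of the 7 was -0.47 beside 0.0057 over all features. DESeq2 also called 1 higher (0.922% of features) and 1 lower, 2 in all (2.33%), and limma on the log2 TPM table called CLDN4 alone (0.554%). In bulk RNA, fewer cells that express a gene and less of its RNA per cell cannot be told apart.

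CLDN4 (ENSG00000189143) lies on chr7:73799542-73832690, plus strand, of GRCh38. It had 9.27, 9.83 and 10.4 CPM in control libraries 1, 2 and 3, and 28.4, 23.9 and 25.8 CPM in sedanolide libraries 1, 2 and 3. All 3 sedanolide libraries were above all 3 control libraries, and within each group the libraries of both sides were close together. The fitted log2 fold change was 1.40 ± 0.13 (SE), or 2.64-fold, with 1.42 within side A and 1.32 within side B. The difference between the sides was 0.07 in log2 CPM, averaged over both groups, and 86.8% of all tested features had a larger one. The call rested on 153 to 650 counts per library. It was lost when control 1, control 2 or sedanolide 2 was left out, with a log2 fold change of 1.35, 1.40 and 1.45 in those fits.

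CLDN1 (ENSG00000163347, chr3:190305707-190322446, minus strand) encodes a claudin without which the skin barrier fails. The control libraries had 36.6, 39.5 and 38.1 CPM and the sedanolide libraries 19.8, 21.7 and 22.1 CPM. The groups lay well apart, and the spread within each was small. The log2 fold change was -0.85 ± 0.11 (SE), a 1.80-fold lower level, with -0.78 within side A and -0.88 within side B. The call was lost when any of 5 libraries was left out and kept without sedanolide 3, with values from -0.89 to -0.80.

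The ratio of CLDN4 to CLDN1 within a library did not overlap between the groups either. CLDN4 stood at 0.249 to 0.273 of the CLDN1 level (CPM ratio) in the control libraries and at 1.10 to 1.43 in the sedanolide libraries. This ratio was chosen after the values were seen.

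CLDN6 (ENSG00000184697, chr16:3014712-3020071, minus strand) encodes a claudin of embryonic epithelia that is re-expressed in some tumours. It had 12.1, 10.6 and 12.5 CPM in the control libraries and 9.52, 7.76 and 5.95 CPM in the sedanolide libraries. The groups did not overlap, but the sedanolide libraries were spread over a wider range, lowest in the library of side A. The log2 fold change was -0.60 ± 0.19 (SE), with -0.92 within side A and -0.54 within side B, and it did not pass the thresholds. With the side as a term in the fit it was -0.73 ± 0.15 and did pass, where 2.7% of all features were called. The side was itself taken from these expression values, so that fit may be too lenient. CLDN6 shares 40 exon bases with TNFRSF12A on the opposite strand.

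CLDN2 (ENSG00000165376, chrX:106900164-106930861, plus strand) encodes a claudin that forms a pore for cations and water. Its level was 6.97, 6.10 and 7.57 CPM in the control libraries and 5.00, 4.29 and 5.55 CPM in the sedanolide libraries. The groups did not overlap, although the lowest control and the highest sedanolide library were close. The log2 fold change was -0.47 ± 0.17 (SE), below the fold threshold, with -0.23 within side A and -0.70 within side B.

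CLDN12 (ENSG00000157224, chr7:90383721-90513402, plus strand) encodes a claudin that lacks the usual C-terminal motif for binding ZO scaffolds. It had 52.8, 66.3 and 52.1 CPM in the control libraries and 51.6, 53.5 and 66.4 CPM in the sedanolide libraries. The groups overlapped, and the highest library of each was from side A. The log2 fold change was 0.00 ± 0.16 (SE), with 0.17 within side A and 0.01 within side B. CLDN12 shares 347 exon bases with GTPBP10 and 201 with CDK14 on the same strand, and how reads there were divided was not examined.

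OCLN (ENSG00000197822, chr5:69492292-69558104, plus strand), the gene of occludin, had 31.7, 41.1 and 20.2 CPM in the control libraries. It had 10.7, 16.1 and 29.3 CPM in the sedanolide libraries. The groups overlapped, with control 3 below sedanolide 3. The log2 fold change was -0.73 ± 0.40 (SE), with -0.30 within side A and -0.62 within side B. Side B was lower than side A, with a difference of -0.99 in log2 CPM, averaged over both groups. For 4.48% of all features the difference between sides was larger. The pseudogene OCLNP1 held at most 1.91 counts in any library, and how reads were divided between it and OCLN was not examined.

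TJP1 (ENSG00000104067, chr15:29699367-29968915, minus strand), which encodes the scaffold ZO-1, followed OCLN. Its level was 90.2, 114.2 and 58.3 CPM in the control libraries and 39.9, 60.7 and 113.5 CPM in the sedanolide libraries. The highest library of each group came from side A, and the groups overlapped over most of their range. The log2 fold change was -0.29 ± 0.40 (SE), with 0.16 within side A and -0.25 within side B. The difference between sides was -1.001, and 4.37% of all features had a larger one.

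**Figure D2:**
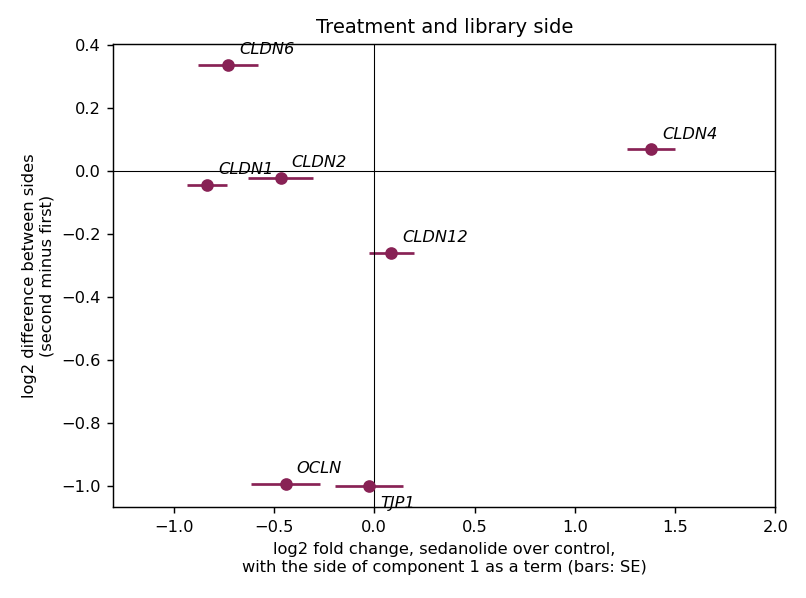
Treatment and side for 7 tight junction genes. The x axis is the log2 fold change of sedanolide over control in the fit with the side as a term, with SE as bars. The y axis is side B minus side A in mean log2 CPM, averaged over both groups and not fitted. CLDN4 lies to the right at a side difference of 0.07, and OCLN and TJP1 lie near the bottom at -0.99 and -1.001.

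OCLN and TJP1 were also the closest pair among the 7 genes, with a root mean square distance of 0.209 between their centred log2 CPM over the 6 libraries. The next pair, CLDN1 and CLDN2, was at 0.246, and the most distant pair, CLDN4 and OCLN, at 1.23. OCLN stood at 0.347 to 0.360 of the TJP1 level (CPM ratio) in the control libraries and at 0.258 to 0.268 in the sedanolide libraries. The ratio thus did not overlap between the groups while the level of each gene did. It was looked at after the values were seen and has no test.

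**Figure D3:**
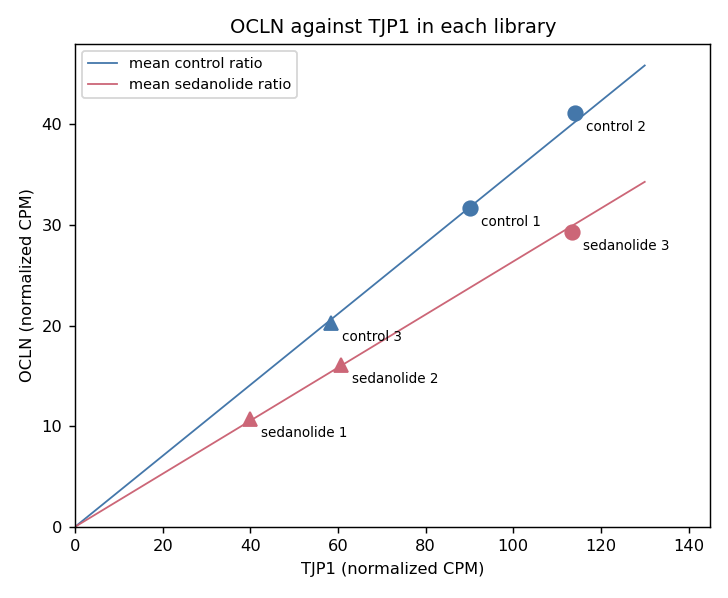
OCLN against TJP1 in each library (both axes in normalized CPM from 0). Each line runs from 0 with the mean ratio of its group, 0.353 for control and 0.264 for sedanolide, and circles and triangles are the libraries of side A and side B. The libraries move along the lines with the side, and the 3 sedanolide points lie on the lower line.

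CLDN3, the gene of a further barrier-forming claudin, and CLDN7, the gene of another claudin, did not pass the filter. CLDN3 (ENSG00000165215, chr7:73768997-73770270, minus strand) had 6, 8 and 5 counts in the control libraries and 5, 7 and 4 in the sedanolide libraries. CLDN7 (ENSG00000181885, chr17:7259903-7263983, minus strand) had 2, 7 and 4 counts in the control libraries and 5, 3 and 3 in the sedanolide libraries. At this depth no difference in either gene was detectable.

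Levels of different genes were compared per length, in TPM (a share of all transcripts, corrected for gene length) from the deposited log2 table. In the control group the order was CLDN12 (24.9 ± 5.14 TPM), TJP1 (24.5 ± 8.80), CLDN1 (16.6 ± 1.75), CLDN6 (14.2 ± 0.446), OCLN (10.7 ± 3.62), CLDN4 (9.29 ± 0.785) and CLDN2 (3.57 ± 0.125; mean ± SD, n = 3). Among neighbours in that order the ranges were apart only between CLDN1 and CLDN6 and between CLDN4 and CLDN2. In the sedanolide group CLDN4, at 22.8 ± 2.29 TPM, stood next to CLDN12 (23.3 ± 4.97 TPM) at the top, ahead of TJP1 (19.3 ± 11.2 TPM). CLDN1 (8.64 ± 1.27 TPM), CLDN6 (8.56 ± 1.38 TPM) and OCLN (6.56 ± 3.47 TPM) followed, and CLDN2 (2.38 ± 0.468 TPM) was last. There the ranges of neighbours were apart only between OCLN and CLDN2.

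The transcripts of the 5 claudin genes above the filter summed to 64.2 to 76.8 TPM in the control libraries and to 59.8 to 74.1 TPM in the sedanolide libraries, so the ranges overlapped. Within that sum the share of CLDN4 was 13.1% to 14.4% in the control libraries and 33.4% to 36.8% in the sedanolide libraries. The share of CLDN1 was 24.2% to 24.3% and then 11.8% to 14.1%. CLDN6 held 18.0% to 22.7% in the control libraries and 9.90% to 15.9% in the sedanolide libraries, and CLDN12 held 33.6% to 40.1% and 31.9% to 39.3%. The shares of a sum depend on each other, and depth is not known from TPM values alone.

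**Figure D4:**
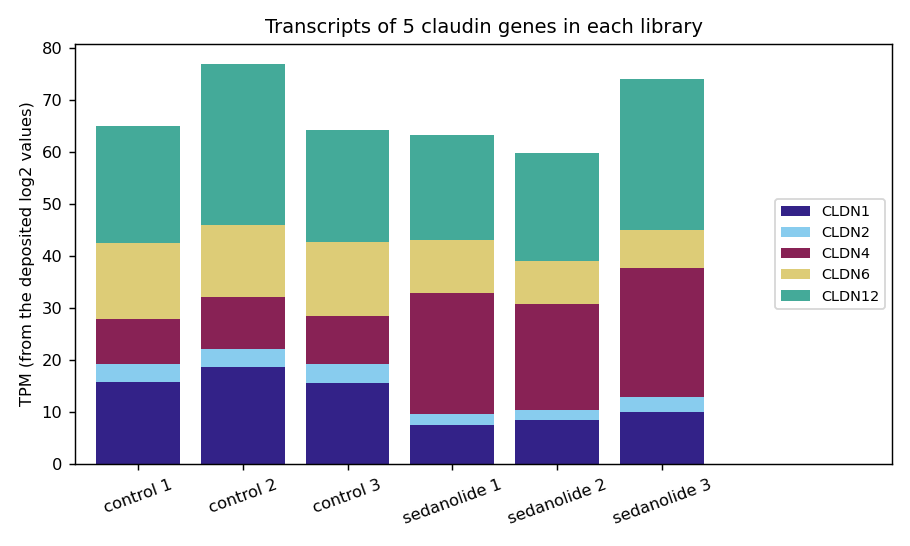
Transcript level of 5 claudin genes stacked in each library (y axis, TPM from 0; x axis, library). The height of the stack lies between 59.8 and 76.8 TPM in the 6 libraries, and the CLDN4 part covers 13.1% to 14.4% of it in the control libraries and 33.4% to 36.8% in the sedanolide libraries.

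The rest of the tight junction was examined in a list of 48 genes taken from general knowledge of strand, plaque and polarity proteins. Of these 30 were tested and 0 were called by edgeR's quasi-likelihood test (0.674% of all features). At an unadjusted p under 0.05 were 8, where 11.9% of all features were. DESeq2 also called 0 (2.33% of all features). At such shares, 0 calls among 30 genes do not set the list apart. The log2 fold change was positive for 8 and negative for 22 of the 30, with a median of -0.14. The largest decrease in value was that of CGN, which encodes the plaque protein cingulin, from 6.12 ± 1.07 to 3.59 ± 1.08 CPM (log2 fold change -0.77 ± 0.25 SE, adjusted p = 0.287), with -0.36 within side A and -0.93 within side B. MARVELD3, a relative of occludin, had 6.21 ± 0.296 and 4.01 ± 0.514 CPM (log2 fold change -0.64 ± 0.16 SE, adjusted p = 0.176). The largest increase in value was that of ARHGEF2, the gene of the junction-associated exchange factor GEF-H1, at 0.44 ± 0.14 on the log2 scale (adjusted p = 0.288).

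Among the other claudin genes only CLDN11, CLDN15 and CLDN19 of 17 passed the filter. CLDN19 had 9.33, 6.48 and 6.56 CPM in the control libraries and 5.59, 4.21 and 4.80 CPM in the sedanolide libraries, or -0.62 on the log2 scale (adjusted p = 0.296). CLDN11 overlapped between the groups, with log2 fold change 0.41 (adjusted p = 0.760), and CLDN15 had -0.03 (adjusted p = 0.955). All 7 tested genes of the plaque scaffolds had negative values, from -0.77 for CGN to -0.03 for MAGI1, and none passed the test. The 9 polarity genes lay between -0.57 for PARD6A and 0.35 for PARD3.

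The same cells form other junctions. Of 25 genes of adherens junctions, desmosomes and gap junctions, 21 were tested and 0 were called in edgeR's quasi-likelihood test (0.674% of all features), with 3 at an unadjusted p under 0.05 (11.9% of all features). Values were negative for 17 of the 21, and the median was -0.19. The groups did not overlap for 5 genes that were lower (9.66% of all features) and 0 that were higher (8.69%). CDH1, the gene of E-cadherin, had 95.5, 103.7 and 62.3 CPM in the control libraries and 34.5, 38.3 and 56.9 CPM in the sedanolide libraries. The groups lay apart by a narrow margin, with the lowest control library from side B and the highest sedanolide library from side A. Its log2 fold change was -1.01 ± 0.26 (SE, adjusted p = 0.186), with -0.81 within side A and -0.78 within side B.

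JUP encodes plakoglobin, which links desmosomal and classical cadherins to the cytoskeleton. Its level was 94.0, 75.4 and 86.5 CPM in the control libraries and 55.3, 50.4 and 48.2 CPM in the sedanolide libraries, without overlap. The log2 fold change was -0.73 ± 0.13 (SE, adjusted p = 0.0679), with -0.80 within side A and -0.71 within side B. CDH1 and JUP were called lower by DESeq2 (adjusted p = 0.0185 and 2.81e-05), where 1.4% of all features were called lower. With the side as a term in the edgeR fit both were also called lower (adjusted p = 0.00257 and 0.00749), where 1.63% of all features were. The side was taken from these same expression values, so the p-values of that fit may be too small. NECTIN4, PKP2, GJB2 and GJC1 had values of -0.57, -0.39, -0.58 and 0.15 and were not called.

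**Figure D5:**
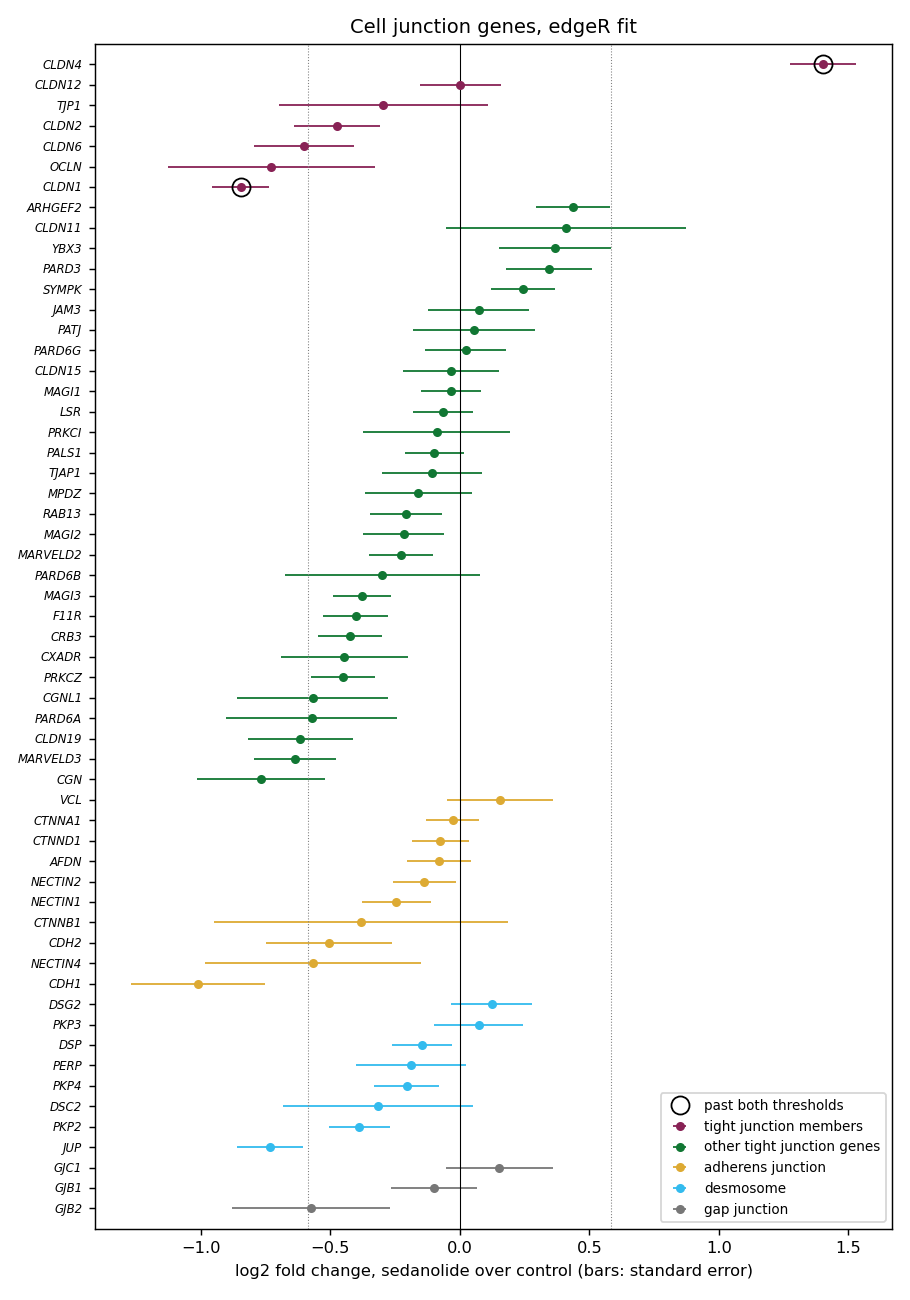
Log2 fold change of sedanolide over control for tested tight junction, adherens junction, desmosome and gap junction genes (x axis, log2 fold change, with SE as bars; colours, gene list; dotted lines, a fold change of 1.5 in either direction). Ringed points passed both thresholds and are CLDN4 at 1.40 and CLDN1 at -0.85. The other tight junction genes lie between -0.77 and 0.44.

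A list of 27 known regulators and partners of claudins held 17 tested genes. None was called in edgeR's quasi-likelihood test (0.674% of all features), 3 were at an unadjusted p under 0.05 (11.9% of all features), and DESeq2 called 0 (2.33% of all features). SPINT1, which encodes a membrane inhibitor of the protease matriptase, had 2.16 ± 0.410 and 1.01 ± 0.292 CPM (log2 fold change -1.07 ± 0.28 SE, adjusted p = 0.202). SNAI1, the gene of the repressor Snail, had 6.32 ± 1.62 and 10.5 ± 1.03 CPM (log2 fold change 0.74 ± 0.20 SE, adjusted p = 0.220). The groups did not overlap for either gene, and neither passed the test. Of the 17 tested genes, 2 were higher without overlap (8.69% of all features) and 2 lower (9.66%). GRHL2, ZEB2, TWIST1 and TFAP2A, further transcription factors of the list, had at most 1 count in any library.

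Some CLDN4 signal in liver tissue can come from bile duct cells. All libraries here came from the same cell line, so bile duct markers were read only to describe that line. Of 8 cholangiocyte markers, KRT7, CFTR and SPP1 had fewer than 10 counts in every library, and the summed level of the list was 317.6 to 371.0 CPM in the control group and 257.2 to 343.6 CPM in the sedanolide group. The ranges overlapped, most of the sum came from SOX9 and EPCAM, and the relation of these markers to the CLDN4 difference was not tested. KRT19, the keratin of the list that passed the filter, had 34.9 ± 10.3 and 15.2 ± 4.94 CPM (log2 fold change -1.21, edgeR adjusted p = 0.186). The value was -1.51 within side A and -1.34 within side B. KRT19 was called lower by DESeq2 (adjusted p = 0.00823) and with the side as a term (adjusted p = 0.00430). Among fibroblast markers PDGFRB had 20.1 ± 4.69 and 7.51 ± 3.35 CPM (log2 fold change -1.42, adjusted p = 0.155), with -0.998 within side A and -1.40 within side B, while COL1A1, COL3A1 and DCN had at most 3 counts. PDGFRB was also called lower by DESeq2 (adjusted p = 0.00420) and with the side as a term (adjusted p = 0.00208). For KRT19 and PDGFRB the p-values with the side may be too small, since the side was taken from these same expression values. The endothelial marker PECAM1 had 4.46 ± 0.569 and 4.67 ± 0.799 CPM, and the macrophage marker CD68 had 11.4 ± 2.54 and 14.5 ± 0.273 CPM (adjusted p = 0.915 and 0.484).

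The genes whose profile over the 6 libraries was most like that of CLDN4 were found by the root mean square distance of centred log2 CPM. The nearest was FOS, the gene of an AP-1 transcription factor subunit, at a distance of 0.109. FOS had 2.00, 2.20 and 2.49 CPM in the control libraries and 6.45, 6.18 and 7.06 CPM in the sedanolide libraries. The others were ENSG00000261578, IKBKG, DCDC1 and BHMT2, at distances of 0.111, 0.112, 0.116 and 0.138 and log2 fold changes of 1.45, 1.48, 1.39 and 1.39. IKBKG, which encodes the NEMO subunit of the IκB kinase, has a near-identical pseudogene copy, so its counts are uncertain. All 5 were picked for their likeness over these libraries, which includes the difference between the groups.

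No neighbour of CLDN4 was called with it. Within 200 kb lie 10 other protein-coding genes, of which 7 were tested. In edgeR's quasi-likelihood test 0 were called (0.674% of all features) and 0 were at an unadjusted p under 0.05 (11.9%). DESeq2 called 0 (2.33%). At such shares, 0 calls among 7 genes say little about the neighbours. Their log2 fold changes ran from -0.34 for DNAJC30 to 0.28 for BUD23. The nearest gene, METTL27, lies 1900 bases away and had at most 19 counts in any library, and CLDN3 lies 29272 bases away. Beside CLDN6, TNFRSF12A stood at 0.30 on the log2 scale (adjusted p = 0.419) and CLDN9 at most 2 counts.

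RefSeq start sites of GRCh38.p14 were found for all 9 genes, with 15 windows of 250 bases before and 50 bases after a start. In these windows 5 motifs were searched on both strands, and a match describes letters only. The antioxidant response core TGACNNNGC was in 5 of the 15 windows (13.3% of 35116 windows of all genes) and the AP-1 letters TGANTCA in 2 (7.71%). These 2 motifs shared no bases in any of the 15. The E-box CAGGTG was in 6 (20.6%), the GC box GGGCGG in 9 (45%), and TATAAA in 0 (11.5%). The window of CLDN4 held TGANTCA at 2 places and no TGACNNNGC, the window of CLDN1 held neither, and an upstream window of CLDN2 held TGANTCA once. TGACNNNGC was found in windows of CLDN2, CLDN3, CLDN7, CLDN12 and OCLN.

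The stretches around TGANTCA are shown because CLDN4 and CLDN2 are the genes that hold these letters while differing in direction; the motif is in capitals, read 5′ to 3′ on the strand of the gene. The CLDN4 stretches, chr7:73830746-73830770 and chr7:73830825-73830851 on the plus strand, begin their motif 242 and 161 bases before the RefSeq start and also lie in an exon of longer GENCODE transcripts of CLDN4. The CLDN2 stretch, chrX:106900094-106900120 on the plus strand, has the motif 60 bases before the start.
CLDN4, far site: ctgggctgTGATTCAgtgtctgtct
CLDN4, near site: gactggatagTGACTCAgggacccggg
CLDN2: atttttctccTGATTCAtctcatgcca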

How the data were processed

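From the total RNA of 6 HepG2 samples, mRNA was captured and made into libraries with a directional kit. Per the labels the authors used FastQC, Trimmomatic, STAR, RSEM and GRCh38. The authors deposited RSEM expected counts per gene and a table of log2 (TPM + 1) values for 11006 genes. The annotation release was not given in the sources used here. Expected counts were rounded (7.9% to 8.59% of the values of a library were not whole), filtered with filterByExpr, scaled by TMM and tested in edgeR 4.0.16 (R 4.3.3) by the quasi-likelihood test with Benjamini-Hochberg adjustment over 14104 features (14102 genes and 2 reporters), at FDR 0.05 and a fold change of 1.5. DESeq2 1.42.0, limma-voom (limma 3.58.1), other scaling and filters, a replicate block, the side of component 1, and leaving out each library were alternatives. The script was tested on simulated counts. Log2 CPM used a prior count of 2. Gene positions came from GENCODE 44, which matched 61369 of 61541 genes.

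The genes and lists were chosen with earlier results of these data known. Named genes were the 9 genes, list genes past both thresholds, the 2 largest log2 fold changes of each list, 5 genes most like CLDN4 with a mean of at least 1 CPM, genes within 200 kb of CLDN4 or beside CLDN6, NQO1 and GCLM. Other list genes given as values were chosen after their values were seen. Some list genes are not reported here by name and are left out of the plot of junction genes, but they stayed in the fit and the counts.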

Additional observations from a re-analysis of the deposited data

How the results depend on the processing

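CLDN4 and CLDN1 kept their direction in every alternative that was run. With 2 of the genes past both thresholds, a fold change of 2 left 1, the replicate block left 0, and leaving out one library left 0 to 2. In the log2 TPM table limma called 1 (CLDN4), 0 with the replicate block and 0 to 1 without one library. Other tight junction genes and regulators stayed at 0 in all alternatives. Other cell junction genes went from 0 to 2 with DESeq2, 2 with the side as a term, 1 with library size only and 1 without a filter on low counts, and were 0 to 0 without one library. Over all features 95 were called, against 328 with DESeq2, 158 without a filter, 381 with the side as a term, 0 with the replicate block and 0 to 136 without one library (0 without control 1 and without sedanolide 2). CLDN12 changed sign around 0: its log2 fold change was -0.040 with library size only and ran from -0.12 to 0.12 without one library (-0.06 without control 1, -0.06 without control 3, -0.12 without sedanolide 3). Same-numbered libraries of the groups deviated oppositely (r = -0.13, -0.30 and -0.73 across genes), so the values give no sign of a pairing by number. Same-numbered libraries also lay on opposite sides of component 1, so these correlations cannot exclude a shared culture or run. The causes were not tested. CLDN3, CLDN7 and 18 other tight junction genes were below the filter, and whether depth or absent expression accounts for this was not tested.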
